A study of Mus musculus with 30 samples.

Results

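Mammary carcinomas of c-Myc transgenic mice were profiled as 15 RNA extracts on 30 two-colour arrays, and 3 of the extracts, 540-B, 546-A and 550-A (6 of the 30 arrays), are described here against the other 12 (24 arrays). The 3 were chosen by their measured values: they have the highest means over 2 lists of genes, one of mesenchymal genes and one of fibroblast and extracellular matrix genes, 90 measured genes in all. Each extract was hybridised on 2 arrays, once in each channel, against 1 common reference RNA labelled GES03-0001 that both sets share. The measured quantity is the log2 ratio of the 2 channels, turned to one direction and averaged over the 2 arrays of an extract.

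All 15 extracts carry the Myc transgene by the series' title, and no untransgenic tissue is among them. The sources used here do not give the promoter driving the transgene, the strain, age or treatment of the mice, or what the reference was made from. Both arrays of 540-B and of 546-A carry the description that speaks of the transition from epithelium to mesenchyme, as do 25 arrays in all, and both arrays of 550-A are among the 5 described by tumour progression. The labels do not say whether extracts come from separate mice. 546-A shares its number with 546-B, which is one of the other 12, and 5 of the other 12 share the number 579. The groups were picked on measured values, so no p-value is given for the 3 against the 12.

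A carcinoma is epithelium growing in a stroma of fibroblasts, vessels and immune cells. Its RNA carries more collagen, fibronectin and tenascin either when the stroma is a larger share of the piece or when the tumour cells themselves take on mesenchymal features, such as vimentin filaments and a contractile actin skeleton. In whole-tumour RNA, a different number of cells of a type and a different amount of RNA per cell cannot be told apart.

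Neither the dyes nor the numerator of the ratio are in the labels. Myc lay far to one side of 0 in every extract, and that side is called higher here. With the Myc transgene in the extracts, it is likely the extract over the reference. If the ratios were turned, higher and lower would change places throughout.

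The means over the 90 genes that chose the set were 0.67 in 546-A, 0.55 in 550-A and 0.16 in 540-B. The extracts just outside were 579-E at -0.52, 546-B at -0.60 and 561-B at -0.64, and the lowest were 548-A at -1.77 and 579-D at -1.97. The same 3 extracts held the top 3 ranks on the arrays of each channel orientation taken alone.

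The 4 marker genes given with the set follow this pattern with 1 exception. Tnc, which encodes the matrix glycoprotein tenascin C, was at 3.13 in 540-B, 4.53 in 546-A and 4.35 in 550-A, against a lowest of -3.53, a median of -0.71 and a highest of 1.41 (546-B) in the other 12. Vim, encoding vimentin, was at -2.00, -1.73 and -1.35 against -4.50 to -2.97 with a median of -3.66. Fn1, encoding fibronectin, was at -0.35, -0.33 and -0.02 against -2.50 to -0.92 with a median of -1.86. All 3 extracts lay above all 12 for these 3 genes. Dcn, encoding the small proteoglycan decorin, did not separate the sets: 546-A at -1.34 lay below 546-B at -1.03, 561-B at -0.83 and 579-E at -0.37, while 540-B was at -0.35 and 550-A at -0.22. These values are part of how the extracts were picked and test nothing.

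In the lists that chose the set, 21 of 43 mesenchymal and 24 of 47 fibroblast and matrix genes were separated (defined below) and higher. Over all genes 1.55% were. The means of these list genes picked the extracts, so the counts follow from the choice and test nothing. The collagen chain Col3a1 was at 0.66, 1.62 and 0.57 against -4.54 to -0.37, and the protease inhibitor Timp1 at 0.60, 1.25 and 1.47 against -3.85 to -0.35. Hmga2, which encodes a DNA-bending protein, was at -2.33, -2.45 and -1.43 against -6.45 to -3.51, with 546-A on 1 array. Twist1, a transcription factor of mesenchyme, was at 0.31, 0.76 and 0.21 with 546-B close below at 0.13.

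**Figure D1:**
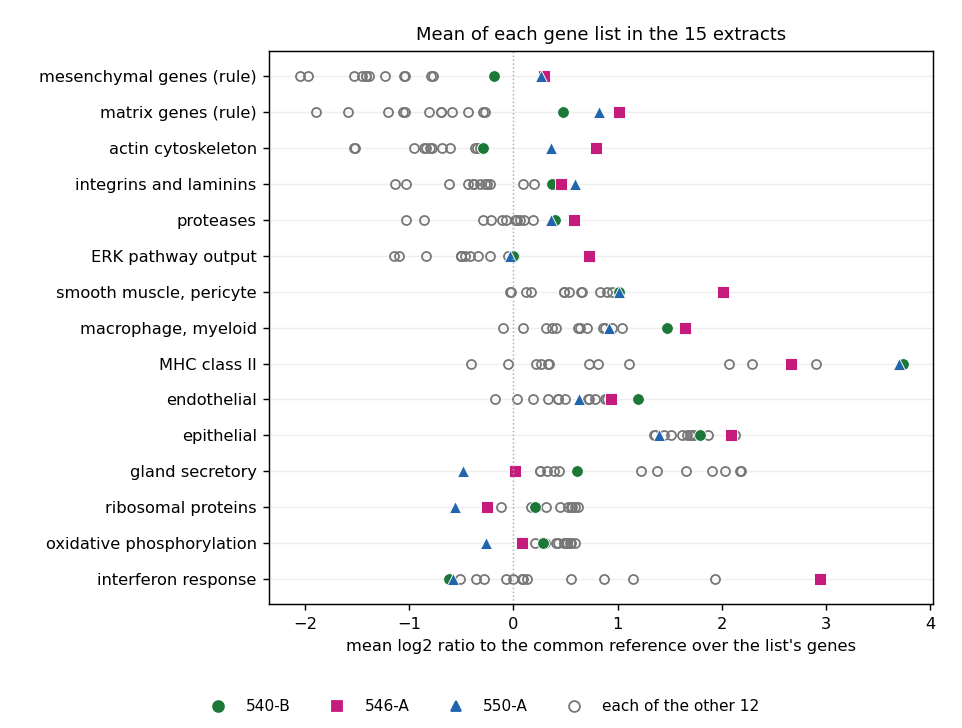
Mean log2 ratio to the common reference (x axis) over the measured genes of 15 gene lists (rows), 1 point per extract, with 540-B, 546-A and 550-A filled and the other 12 open. The first 2 rows are the lists that chose the set; the 3 extracts also lie to the right of all 12 for actin, integrin and laminin, protease and smooth muscle lists, and 546-A alone lies far right for interferon response genes, at 2.95.

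Of the 9829 genes outside the 2 lists, 582 differed by at least 1 log2 unit upward and 602 by at least as much downward, and 44.9% had a difference above 0 (45.4% of all 9919 genes). A gene is called separated when all 3 extract means lie on one side of all 12 others and the set means differ by at least 1 log2 unit. Outside the lists, 109 genes were separated and higher in the 3 (1.11%) and 34 were separated and lower (0.346%). The balance of these counts depended on the arrays and extracts used: it was 33 higher and 45 lower on the channel 2 arrays, 316 and 326 without 540-B, and 113 and 132 without 546-A and 548-A. Within the 2 lists 45 genes were separated, all higher, so that 154 of all 9919 genes were separated and higher (1.55%). The lists do not hold every matrix gene: Cd248, Col14a1, Prelp, Aebp1 and Loxl3, all of stroma or matrix, are among the 109. Over all 9919 genes the median difference was -0.06, or 0.04 after each array's median was subtracted.

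The 109 higher genes and the 34 lower ones differed in how well they were measured. Of the 109, 107 had a difference above 0 in each channel orientation alone, 17 had no overlap between the sets in either orientation, and 25 had a value on only 1 array of 546-A. Of the 34, 22 had a value on only 1 array of 546-A and 0 were free of overlap in both orientations. A gene without a value on every array could not count as free of overlap in both orientations. That barred at least the 25 and the 22 genes with 1 array of 546-A, so the 17 and the 0 are not compared. Over all 9919 genes, 2842 had 1 array of 546-A. A limma F-test among the 15 extracts (adjusted p under 0.05) called 54 of the 109, 4 of the 34 and 7.97% of all genes. The separated genes were chosen on gaps between the same extract means, so nothing is read from these counts. The array with 546-A in channel 1 measured 14643 of 22800 probes and the other measured 16089, where the fullest array measured 21991. With values required on both arrays of all 3 extracts, 81 of 6705 genes were higher (1.21%) and 9 lower (0.134%).

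**Figure D2:**
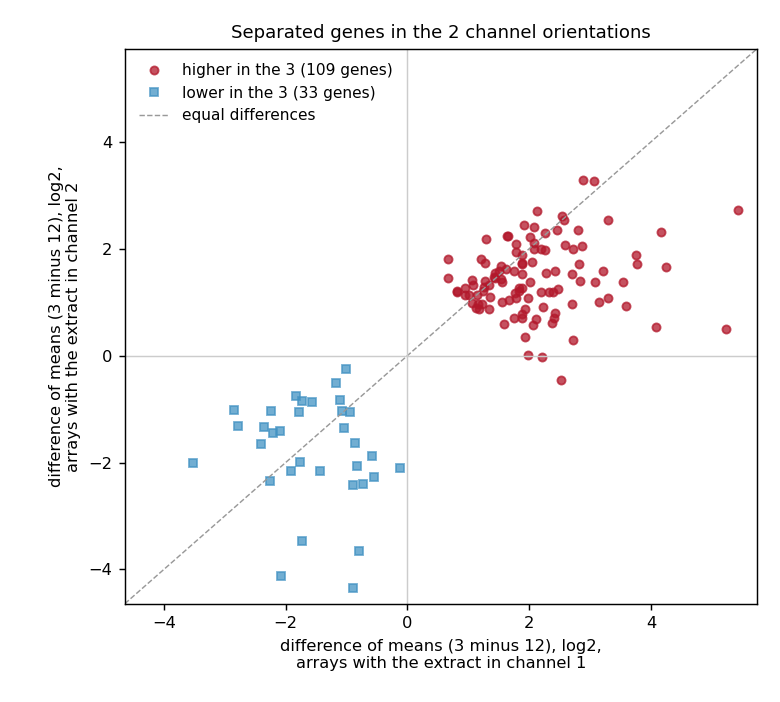
Difference of means, 3 minus 12, on the log2 scale, for separated genes outside the 2 lists, on arrays with the extract in channel 1 (x axis) and in channel 2 (y axis); the dashed line marks equal differences. The 109 higher genes and 33 of the 34 lower genes are drawn. In both orientations 107 of the 109 have a positive difference, and the 33 lower genes have a negative one.

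Mmp13, encoding a collagenase that cleaves fibrillar collagen, had the largest difference among the separated genes outside the lists that were measured on all 6 arrays of the 3. It was at 3.30 in 540-B, 4.95 in 546-A and 3.03 in 550-A, and ran from -1.42 (548-A) through a median of 0.45 to 2.01 (579-B) in the other 12. The set means were 3.76 ± 1.04 (SD, n = 3) and 0.40 ± 1.09 (SD, n = 12), a difference of 3.36, or 10.3-fold. The difference was 4.17 in channel 1 and 2.32 in channel 2. On the channel 2 arrays the sets overlapped: 579-F at 3.295 and 597-B at 3.073 lay above 540-B at 2.896. The 2 other proteases that separated were Mmp9, a gelatinase, at 0.70, 0.97 and 1.85 against a highest other value of -0.13, and Plaur, the receptor of the plasminogen activator urokinase, at 0.08, 1.31 and 0.15 against 0.00 in 595-A. The margin of Plaur is narrow, and Mmp9 was on 5 of the 6 arrays. Over the 23 measured genes of the protease list the median difference was 0.55, with 19 above 0. That median fell to 0.04 on the arrays with the extract in channel 2. The shares over all genes were 45.4% above 0 and 1.55% separated and higher.

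The promoter windows of Mmp13, Emp1 and Plaur are shown because these 3 separated genes, among others, hold a match to the AP-1 motif close to the start. Each window runs from 250 bases before the RefSeq start to 50 after (GRCm38.p6), 5′ to 3′ along the gene's own strand. The letters TGANTCA, searched on both strands, are in capitals. The windows are chr9:7272264-7272563, plus strand for Mmp13, chr6:135362681-135362980, plus strand for Emp1 and chr7:24462233-24462532, plus strand for Plaur. A second window of Emp1, chr6:135367243-135367542, held 0 matches and is not shown.
Mmp13: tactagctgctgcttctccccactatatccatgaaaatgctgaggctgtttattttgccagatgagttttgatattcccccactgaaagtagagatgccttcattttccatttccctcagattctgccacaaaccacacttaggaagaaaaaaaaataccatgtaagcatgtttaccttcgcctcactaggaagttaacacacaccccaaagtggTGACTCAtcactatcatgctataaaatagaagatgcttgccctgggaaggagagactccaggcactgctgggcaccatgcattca
Emp1: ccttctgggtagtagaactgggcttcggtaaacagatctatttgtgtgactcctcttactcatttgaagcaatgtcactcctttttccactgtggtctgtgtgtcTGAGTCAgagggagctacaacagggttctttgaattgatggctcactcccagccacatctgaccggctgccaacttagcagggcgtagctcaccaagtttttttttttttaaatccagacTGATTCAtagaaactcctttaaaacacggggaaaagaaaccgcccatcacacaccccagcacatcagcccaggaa
Plaur: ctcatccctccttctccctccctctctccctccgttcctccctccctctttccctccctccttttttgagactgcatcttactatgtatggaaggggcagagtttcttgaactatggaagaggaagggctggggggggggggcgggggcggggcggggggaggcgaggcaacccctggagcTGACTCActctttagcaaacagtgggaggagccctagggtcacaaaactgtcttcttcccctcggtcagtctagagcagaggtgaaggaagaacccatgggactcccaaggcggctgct
In the Mmp13 window the match starts at position -35 from the start, in the Plaur window at -69, and in the Emp1 window the first of 2 starts at -145. AP-1 is the Fos and Jun dimer that reads growth factor and stress signals. The motif was in 13 of 116 windows (11.2%) of the 83 separated higher genes with a window, and in 600 of 9866 windows (6.08%) of all measured genes with one. The 13 windows belong to 11 genes, since overlapping windows of Prss23 and of Upp1 hold the same site. Among separated genes of the 2 lists it was in 1 of 36 windows (2.78%). The letters GGAATG, the core read by the TEAD factors, were in 12.1% of windows of the separated higher genes outside the lists. They were in 12.5% of windows of all measured genes. Among separated genes of the 2 lists they were in 7 of 36 windows (19.4%). These shares describe letters in windows; binding was not measured.

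Genes of the actin skeleton and of adhesion to the matrix were higher together. Of 36 measured actin genes, 34 had a difference above 0, the median was 0.98, and 4 were separated (11.1%). Over all genes 45.4% were above 0 and 1.55% were separated and higher. The median ranged from 0.64 (without 546-A and 548-A) to 1.31 over the other ways of processing. Lgals1, encoding the secreted lectin galectin-1, was at -2.38 in 540-B, -0.95 in 546-A and -1.19 in 550-A, against -5.03 to -3.46 with a median of -3.98 in the other 12. Its difference was nearly equal in the 2 orientations (2.53 and 2.60). Cnn2, a calponin that binds actin, was at -0.54, 0.97 and -0.05 against -3.34 to -1.24. Msn, encoding moesin, which ties actin to the membrane, was at -0.13, 1.21 and 0.75 against -2.01 to -0.35. Neither overlapped in either orientation. Myl9, a myosin light chain, was the fourth, at -0.24, 0.16 and -0.18 against -3.35 to -0.85.

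Of 14 integrin and laminin genes 13 were above 0, with a median of 0.70 and 3 separated. The shares over all genes were 45.4% above 0 and 1.55% separated and higher. Itgb1, the beta subunit that most matrix integrins share, was at -0.18, 0.57 and 0.61 against -2.43 to -0.76, and differed by 1.62 in each orientation. Itga3, a laminin-binding alpha subunit, was at 1.27, 1.58 and 1.47 against -0.34 to 0.55, the tightest grouping among these 3 (SD 0.16, n = 3). Lamc1, the laminin gamma chain of basement membranes, was at -0.44, 1.10 and 0.74 against a highest value of -0.50, so 540-B lay only just above the other 12. Lamb1 had a larger difference, 2.35, but 579-E at 1.96 lay above all 3. Itgb4, the hemidesmosome integrin of basal epithelium, was at 3.77, 3.60 and 4.89 against 1.03 to 2.57.

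Other large differences outside the lists were in single genes of varied function. Cav1, which encodes the caveolar coat protein caveolin-1, was at -2.47 in 540-B, 1.71 in 546-A and -1.30 in 550-A, and between -7.42 and -3.04 in the other 12. Pdpn, encoding podoplanin of fibroblasts, lymphatic and migrating epithelial cells, was at -1.79, -0.37 and -0.34, with 546-B just below 540-B at -1.88. Sema7a, a membrane semaphorin, was at 2.38, 3.25 and 1.29 against 1.20 in 546-B. Slco2a1, a prostaglandin transporter, was at 2.10, 2.35 and 3.20 against 1.71 in 546-B. For these last 3 genes 546-B, the extract that shares its number with 546-A, was the closest of the other 12, as it was for 23 of the 109 genes; 579-E was the closest for 26.

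Fstl1, a secreted follistatin-like glycoprotein, was at -0.21, 1.58 and 0.10 against -4.32 to -1.09, and did not overlap in either orientation. Plk2, a polo-like kinase, was at -1.10, 0.24 and 0.23 against -4.88 to -1.69, and did not overlap either. Moxd1 was at 3.75, 3.80 and 3.16 against -0.60 to 1.48, though its difference was 4.25 in channel 1 and 1.65 in channel 2. Ctnnd2, encoding delta-catenin, was at 0.72, 3.28 and 1.46 against -2.73 to -0.19. Bmp1, the procollagen C-proteinase, was at 1.78, 1.93 and 2.26 against -2.03 to 1.13, but a second probe of the gene differed by only 0.18.

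Dsp, encoding desmoplakin of epithelial desmosomes, was at 3.64, 3.31 and 4.89 against -0.61 to 2.53. Its difference of 3.05 came from the channel 1 arrays (5.24), was 0.50 in channel 2, and the gene did not pass the F-test (adjusted p = 0.76, limma).

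**Figure D3:**
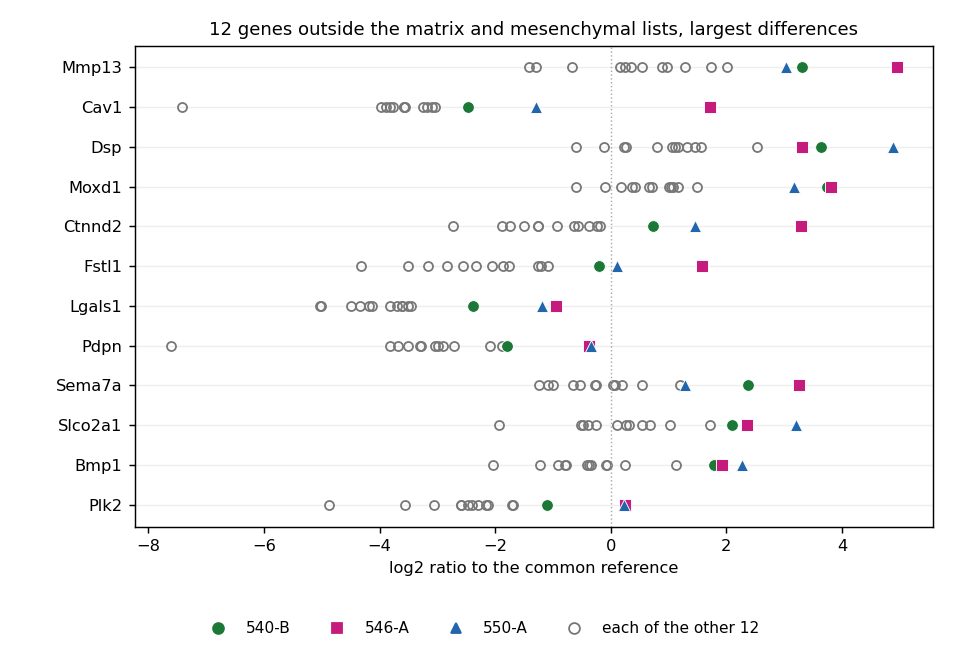
Log2 ratio to the common reference (x axis) of the 12 genes with the largest positive differences outside the matrix and mesenchymal lists among those on all 6 arrays of the 3 (rows), 1 point per extract. The filled points of 540-B, 546-A and 550-A lie to the right of all 12 open points in every row, with the narrowest gaps for Pdpn and Sema7a.

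Genes of the ERK output list, which respond to growth factor signalling through the MAP kinases, had a median difference of 1.06 over 17 measured genes. Emp1, an epithelial membrane protein, was at 0.05, 1.27 and 1.06 against -3.32 to -0.74 and did not overlap in either orientation. Ccnd1, encoding cyclin D1, was at 0.18, -0.14 and 1.47 against a highest value of -0.27, and 546-A had a value on 1 array. Plaur is the other separated gene of this list, where 1.55% of all genes were separated and higher. Dusp6, the ERK phosphatase, was at 0.09, 1.48 and 1.31, but 579-D at 1.31 and 548-A at 0.59 overlapped. The median of the list was 0.51 without 546-A and 0.51 on the channel 2 arrays.

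Of the 38 genes of the cell cycle list 0 were separated and 8 had a difference above 0, as had 45.4% of all genes. The 6 genes named next were picked because they separated, after their values were seen, and how many genes of their kind were measured was not counted. Cdkn1a, encoding the inhibitor p21, was at -0.04, -0.08 and 1.33 against -2.12 to -0.48. Cdkn2b, encoding the inhibitor p15, was at 0.80, 0.38 and 1.56 against a highest of 0.29. Phlda3, a p53 target, was at -0.55, 0.39 and 1.27 against a highest of -0.83. Plk3, Ccng1 and Gadd45a, of which Ccng1 and Gadd45a are known p53 targets, were separated too, with differences of 2.28, 1.01 and 1.11. All 6 of these genes were highest in 550-A among the 3, and Cdkn2b did not pass the F-test (adjusted p = 0.77, limma). Mki67, a proliferation antigen, was at 0.03, -0.51 and -0.74, within the range of the other 12 (-0.84 to 0.64).

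Genes of other stromal and immune cells were higher in part. Of 10 smooth muscle and pericyte genes 3 were separated, where 1.55% of all genes were separated and higher. Actg2, enteric smooth muscle actin, was at 1.17, 3.17 and 1.27 against a highest of 0.68. Mcam was at 3.08, 4.16 and 3.65 against 2.96, and Smtn, encoding smoothelin, at 1.36, 2.56 and 1.28 against 1.00. For Actg2 and for Mcam, 546-A had a value on 1 array. The median of that list, 0.78, was 0.40 without 546-A. Of 15 endothelial genes only Pecam1 was separated, at 2.18, 1.87 and 1.99 against 1.78 in 567-B, and the list's median was 0.19.

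Among 25 macrophage and myeloid genes 22 were above 0, with a median of 0.70 and 4 separated, where 45.4% of all genes were above 0 and 1.55% separated and higher. Mrc1, the mannose receptor of tissue macrophages, was at 2.89 in 540-B, 2.67 in 546-A and 2.15 in 550-A against -1.35 to 1.25, with a difference of 3.29 in channel 1 and 1.08 in channel 2. Fcgr2b, an inhibitory antibody receptor, was at 1.31, 1.77 and 1.13 against -1.23 to 0.37 and did not overlap in either orientation. Laptm5 and Ptprc, markers of blood-derived cells, separated by small margins: Laptm5 was at 0.66, 0.94 and 0.61 against 0.51 in 579-F, and Ptprc at -1.31, -1.84 and -1.50 against -1.97 in 579-B. The median of the list was 0.40 without 546-A. The list mean of 550-A, 0.92, lay below the highest of the other 12 (1.04 in 579-A).

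The 3 measured class II antigen presentation genes had a median difference of 2.43 and none was separated. Cd74, the invariant chain, was at 2.47, 1.85 and 2.93, with 579-D at 2.11 and the other 11 at 0.98 or below. H2-Ab1 was at 3.80, 3.56 and 2.96, with 579-D at 3.32. Cxcl14, a chemokine of epithelium and fibroblasts, was the only separated chemokine, at 5.09, 4.33 and 4.93 against -0.44 to 3.26. Its value in 550-A came from 1 array.

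Of 39 genes of TGF-beta and Wnt signalling, which act on growth and matrix, 29 were above 0 and the median was 0.42. Wnt7b, Fstl1 and Tgfbr2 were the 3 separated. Among all genes 45.4% were above 0 and 1.55% were separated and higher. The list means were 0.27 in 540-B, 0.22 in 546-A and 0.30 in 550-A, just above the highest of the other 12 (0.21 in 546-B). Fgfr1, a fibroblast growth factor receptor, was at 1.34, 4.52 and 1.91 against 1.32 in 567-B, with 546-A on 1 array. Tgfbr2, a TGF-beta receptor, was at 0.98, 1.75 and 0.75 against -0.20 in 561-B. Wnt7b was at 3.34, 3.03 and 3.29 but spread from -4.04 to 2.81 in the other 12. Hes1, a Notch target, was at -0.03, 1.18 and 0.60 against -0.20. P4ha1, a collagen prolyl hydroxylase, was the 1 separated gene of 29 in the hypoxia and glycolysis list, at -2.62, -1.54 and -1.44 against -2.69. Klf6, a transcription factor, was separated in the immediate early list, at 0.15, 2.46 and 0.26 against -0.01.

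Epithelial genes showed no shared direction. Of 32 measured, 15 were above 0, where 45.4% of all genes were. The median difference of -0.23 turned to 0.25 on the channel 1 arrays and 0.20 over genes on both arrays of the 3. Cdh1, encoding E-cadherin, was at 4.33, 3.75 and 3.50, in the upper part of a range of 0.46 to 5.41. Epcam was at 3.02, 3.44 and 2.56 against 2.17 to 3.36. Krt18 was at 0.67, 1.03 and 0.47 against 0.16 to 1.36, with 546-A on 1 array. Krt8 was at 1.90, 3.56 and 2.96 against 1.42 to 2.75. Trf, encoding transferrin, a whey protein in mice, was at 7.97, 8.42 and 7.56 against 4.58 to 10.25.

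Myc itself was at 2.85, 2.88 and 2.38 against 2.87 to 3.68 in the other 12. 546-A lay just inside that range, and the difference of -0.58 was -0.98 in channel 1 and -0.17 in channel 2.

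Genes of ribosomes and of mitochondrial respiration lay lower by small amounts that repeat across many members. Of 65 cytosolic ribosomal protein genes, 1 had a difference above 0 and the median was -0.58, where 45.4% of all genes were above 0. Of 78 oxidative phosphorylation genes, 7 were above 0 and the median was -0.45. After array medians were subtracted they were -0.49 and -0.35. None of either list was separated. The ribosomal list means were 0.21 in 540-B, -0.25 in 546-A and -0.56 in 550-A, against -0.12 to 0.62, so 540-B lay inside the range of the others. The respiration means were 0.28, 0.09 and -0.27 against 0.21 to 0.59, with 540-B inside again. Rps18 was at 0.17, -0.62 and -0.77 against -0.12 to 1.24, and Uqcr11, a subunit of respiratory complex III, at 0.77, -0.01 and 0.04 against 0.90 to 1.43. Uqcr11 lay below all 12 in all 3 extracts but its difference of -0.96 missed the minimum of 1. The Myc target and nucleolar list had a median of -0.29, with 4 of 38 genes above 0.

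Of the members of the 35 lists outside the rule, 0 were separated and lower. Among the 9 measured on all 6 arrays, Dbi, an acyl-CoA binding protein, was at 1.02, 1.36 and 0.68 against 1.41 to 2.54. Ckmt1, the mitochondrial creatine kinase, was at 0.44, -0.19 and 0.34 against 0.67 to 2.30. Atp6v0e2, a proton pump subunit, was at -0.20, -1.33 and -0.72 against -0.17 in 579-B. The gaps between the sets were narrow for Dbi and Atp6v0e2. The other 6 were Slc22a6, Lefty1, Hdhd5, Pick1, Tex19.2 and Ccdc51, with differences from -1.84 (Slc22a6) to -1.20 (Ccdc51).

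Secretory genes of glands had the most negative median of any list, -0.94 over 13 genes, but no gene was separated. Cyp2f2, a cytochrome P450, was at -0.19, -1.29 and -0.37, near the bottom of a range of -0.40 to 5.86. Its value in 546-A came from 1 array. The median was -0.28 over genes with values on both arrays of all 3 extracts.

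The 3 extracts also differed from one another. The limma contrasts, adjusted over all genes and the 3 pairs, called 232 genes between 540-B and 546-A (2.34%), 58 between 540-B and 550-A (0.585%, of which 27 or 0.272% were lower in 540-B) and 309 between 546-A and 550-A (3.12%). Their error is the spread between the 2 arrays of an extract, so the p-values speak of array noise and not of other tumours. 546-A stood apart most: of 9919 genes it was above both others at adjusted p under 0.05 (limma) for 119. Of these, 76 had values on both of its arrays. The counts above both were 3 for 540-B and 7 for 550-A, all on both arrays. Below both others, 546-A had 21 genes, of which 6 had values on both of its arrays. 540-B had 8 genes below both and 550-A had 6, all on both arrays.

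In 546-A the genes of the interferon response, the antiviral programme that interferons switch on, were far above those of 540-B and 550-A. Its mean over 26 such genes was 2.95, against -0.61 in 540-B and -0.58 in 550-A, which both lay below all 12 others; the highest other was 579-D at 1.94. The difference between the sets for this list thus rests on 546-A: its median was 0.28 with it and -0.85 without it. Of the 26, 19 were higher in 546-A than in 540-B and 16 were higher than in 550-A. The background shares for those directions were 1.9% and 2.75%. Cxcl10, an interferon-induced chemokine, was at 6.87 in 546-A, -1.32 in 540-B and -0.21 in 550-A, against -0.49 to 0.51 in the other 12. Its 2 arrays read 9.57 and 4.18. The value of 540-B minus 546-A was -8.19 ± 0.98 (SE; adjusted p = 0.00019, limma). Ifit1 was at 5.13 against -1.43 and -1.57. Gbp2 was at 5.81 on 1 array, in channel 2, against means over both arrays of 0.36 and 0.45. In channel 2 alone 540-B and 550-A read 0.94 and 1.49 for Gbp2. Of 11 class I antigen presentation and immunoproteasome genes, 10 were higher in 546-A than in 550-A, among them B2m at 1.73 against -0.93. Skeletal muscle actin, Acta1, was at 5.92 in 546-A, -2.67 in 540-B and -3.03 in 550-A, and at 4.27 in 546-B.

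A run of neighbouring genes was high in 546-A alone, and it was looked up after the values of Cav1, Met and St7 were seen. In the gene order of the RefSeq annotation (GRCm38.p6, chromosome 6), 6 measured genes in a row, Tes, Cav2, Cav1, Met, Capza2 and St7, lay at least 2 log2 units above all 14 other extracts in 546-A. Met, encoding the receptor of hepatocyte growth factor, was at 4.70 in 546-A on arrays reading 4.35 and 5.04. It was at -0.09 in 540-B and -0.62 in 550-A, and between -0.54 and 0.75 in the other 12. Tes was at 6.28, Cav2 at 5.55, Capza2 at 6.06 and St7 at 7.51 in 546-A, and none of these 4 exceeded 0.72 in any other extract. Past St7, Wnt2 was at -0.32 on 1 array, Lsm8 was again high at 5.69, and Ing3 was at 0.28. On the other side Tfec was at 2.58 on 1 array, within 1 unit of the highest other extract, and Mdfic at -0.13.

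No other run of 3 or more neighbouring genes past that distance was found in 540-B, 546-A or 550-A among 9821 placed genes, of which 154 lay that far above all other extracts in 546-A, 4 in 540-B and 8 in 550-A. Cav1 belongs to this run, and its high value in 546-A stands beside values in 540-B and 550-A that were also above all 12 others. DNA copy number was not measured.

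**Figure D4:**
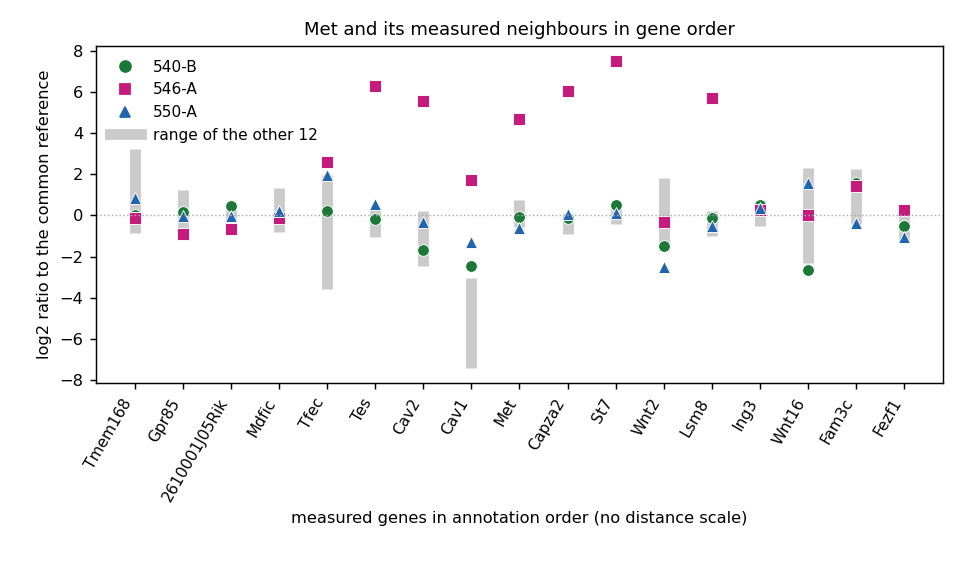
Log2 ratio to the common reference (y axis) of Met and the 8 measured genes on each side of it, in annotation order with no distance scale (x axis); points are 540-B, 546-A and 550-A and grey bars span the other 12 extracts. 546-A lies between 4.70 and 7.51 for Tes, Cav2, Met, Capza2, St7 and Lsm8 and at 1.71 for Cav1, above the bars, while at these genes 540-B and 550-A lie within 1 unit of the bars, except 550-A at Cav1.

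In 540-B, 2 of the 13 gland secretory genes were higher than in 546-A and 2 were higher than in 550-A, where 0.444% and 0.313% of all genes were. Car6, encoding the secreted carbonic anhydrase of saliva and milk, was at 6.31 in 540-B, 0.21 in 546-A and -0.24 in 550-A, and spread from -0.10 to 8.11 in the other 12. The difference from 546-A was 6.10 ± 0.66 (SE; adjusted p = 7.8e-05, limma). Dio1, a thyroid hormone deiodinase, followed the same split at 4.95, -0.19 and 0.13. Krt7, a keratin of ducts, was lower in 540-B (3.01) than in 546-A (5.20) and 550-A (4.95), as was Adm, encoding adrenomedullin, at -2.41 against 0.06 and 0.06. Sptbn1, a spectrin, was at 0.26 in 540-B and at 4.99 and 4.89 in the other 2, while the other 12 stayed between -0.26 and 0.70. Krt6b, a keratin of wounded epithelium, was at -2.00 in 540-B, 9.40 in 546-A on 1 array and 5.96 in 550-A, against -1.30 to 2.40.

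550-A had less beta-casein. Csn2 was at -0.04, against 4.31 in 540-B and 5.58 in 546-A, and spread from 0.60 to 9.29 in the other 12, so 550-A was the lowest of all 15. Its difference from 546-A was 5.62 ± 0.61 (SE; adjusted p = 7.8e-05, limma). Scel, encoding sciellin of the cornified envelope, was at -0.09 in 550-A against -4.33 and -5.95, with 579-F at -0.33 and 546-B at -0.58 at the same level. Sult6b1, Gadl1 and 1600010M07Rik were also highest in the same 3 extracts, 550-A, 546-B and 579-F, so that for these 4 genes 550-A resembled 2 of the other 12 and not its own set.

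**Figure D5:**
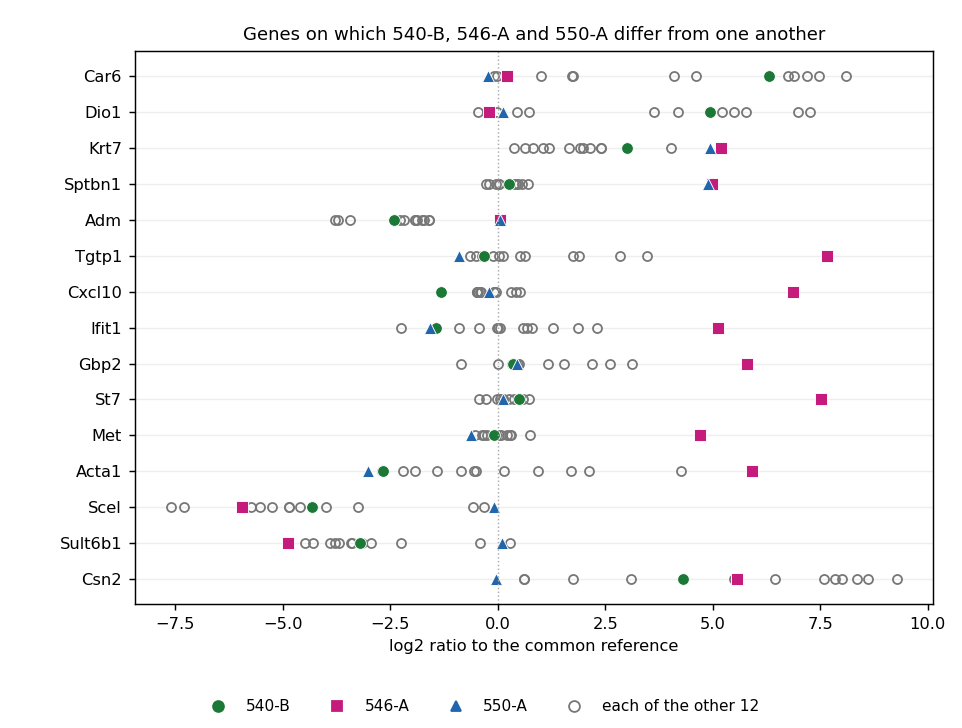
Log2 ratio to the common reference (x axis) of 15 genes chosen to show differences among the 3 extracts (rows), 1 point per extract. 540-B stands apart for Car6 and Dio1, 546-A for 7 genes from Tgtp1 to Acta1, and 550-A for Scel, Sult6b1 and Csn2. Car6, Dio1, Scel and Csn2 spread as widely among the open points. Acta1 was also high in 546-B, and Scel and Sult6b1 were highest in 550-A, 546-B and 579-F.

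Within the other 12 extracts, genes were fitted on the mean of the 90 list genes, which ran from -1.97 to -0.52. This is the mean that chose the set, and it comes from the same arrays as the genes. Outside the lists, 15 of 9829 genes had a positive slope at adjusted p under 0.05 (0.153%) and 0 a negative one (limma). Fstl1 had the smallest p, rising by 2.12 ± 0.24 (SE) per unit (adjusted p = 0.0074, limma). It kept an adjusted p under 0.05 in 14 of 18 alternatives, most of which left out 1 extract of the same arrays. It did not keep it without 579-D, with the extracts of number 579 averaged, or with list mean and genes from opposite channel orientations. The shared arrays and the shared number thus limit what its p-value says. Lgals1 rose by 1.19 ± 0.18 (adjusted p = 0.030), S100a6, a calcium-binding protein of motile cells, by 2.72 ± 0.43 and Olfml3, a secreted matrix protein, by 2.56 ± 0.40. S100a6 and Olfml3 were just short of separated, each because 579-E lay above 1 or more of the 3. The list of 15 was fragile. It was 0 without 579-D, 1 without 548-A, 567-B or 579-B, 2 without 579-E, 3 without 561-B and 20 without 546-B. It was 1 after array medians were subtracted and 0 when the 5 extracts of number 579 were averaged to 1. It was also 0 when the list mean and the genes were taken from opposite channel orientations.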

How the data were processed

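The values are the deposited log2 ratios of the series' value table, 1 column per array, in which 16.61 stands for missing (8839 cells) and 95268 cells are blank; for scanner, background correction, normalization and array build: not given in the sources used here. Ratios of arrays with the extract in channel 2 were turned in sign and the 2 arrays of an extract averaged. Because both arrays carry the same RNA, an extract is 1 replicate. Probes needed values on 24 of 30 arrays and on at least 1 per extract (12888 of 22800); 1 probe per gene, the one on most arrays and then with the closest paired arrays, gave 9919 genes. Symbols came from the platform annotation given for the probes. The 13434 to 21991 probes measured per array, and the small number of arrays, limit the precision. After turning, the paired arrays correlated weakly in every extract. The correlation was 0.21 in 540-B, 0.11 in 546-A and 0.09 in 550-A. It was highest in 567-B, at 0.34, and negative in 579-E, 579-F and 597-B, at -0.12, -0.07 and -0.12.

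The 3 extracts were compared with the other 12 by values, differences and counts of separated genes, without a test. limma 3.58.1 in R 4.3.3 gave an F-test among the 15 extracts and contrasts among the 3 on 30 arrays with a dye term, and a slope on the list mean over 12 extracts, with Benjamini-Hochberg adjustment (the contrasts over genes and pairs together). The scripts were tested on simulated data. The extracts and gene lists were chosen with earlier results of these data known. Named genes are the 12 largest separated differences in each direction measured on all 6 arrays, separated members of the lists, up to 4 members per list, 8 set genes (Myc, Cdh1, Epcam, Krt8, Krt18, Csn2, Trf, Mki67), up to 6 genes per extract and direction among the 3, and 8 slopes per direction; genes named outside these rules are the cell cycle inhibitors, the neighbours of Met and a few stroma genes, which were chosen after their values were seen. Alternatives changed the probe filter, orientation, centring, dye term, minimum difference, probe choice and extracts used.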

Additional observations from a re-analysis of the deposited data

How the results depend on the processing

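The 109 separated higher genes numbered 60 with only probes on all 30 arrays, 33 on channel 2 arrays alone, 36 with a difference of at least 2 and 202 with each extract number used once, and leaving out 1 extract gave 104 to 316 (316 without 540-B, 181 without 550-A). The 34 separated lower genes numbered 9 with probes on all 30 arrays, 14 on channel 1 arrays alone, 13 with a difference of at least 2, 69 with no minimum difference, 132 without 546-A and 548-A and 106 with each number once. They numbered 9 with values on both arrays of the 3, an alternative chosen after seeing the data, and 32 to 326 with 1 extract left out (326 without 540-B, 78 without 546-A, 60 without 548-A, 57 without 550-A, 52 without 579-D). Without a dye term the F-test called 336 genes in place of 791, and the contrasts called 112 between 540-B and 546-A, 21 between 540-B and 550-A and 140 between 546-A and 550-A; with probes on all 30 arrays 540-B and 550-A differed in 90. The 15 positive slopes became 1 with array medians subtracted, 0 with the number 579 averaged to 1 extract, 0 and 0 with the list mean and the genes from opposite orientations, and 0 to 20 with 1 extract left out. The cause of these shifts was not tested. Values of genes named singly were counted once for each gene and alternative. Of these, 65 moved by more than the gene's SD over the other 12 extracts and 2462 did not. That SD is a spread between extracts, not between the paired arrays of 1 extract. Epcam, which was not separated, changed sign. No paired analysis was possible because the 3 and the other 12 share only 1 number, 546, and what a number marks is not in the labels. Depth is not given by log2 ratios, and 20.6% of values equal ratios of small whole numbers.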
